A study of Mus musculus with 48 samples.

Results

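The 5 subunits of the transcription factor NF-kappaB (Nfkb1, Nfkb2, Rel, Rela and Relb) and 5 of its feedback inhibitors (Nfkbia, Nfkbie, Nfkbiz, Bcl3 and Tnfaip3) were followed in O4+ and CD11B+ cells of the neonatal mouse cortex. The genes were chosen by name, with earlier results of these data known. Every probe besides the controls that carried one of the names was taken. This gave 10 of 34797 gene names and 13 of 55681 probes. Male Swiss pups were injected intraperitoneally with IL1B, an inflammatory cytokine, at 10 ng/g, or with PBS, 2 times a day from postnatal day 1 (P1) to P4 and once on P5. O4+ cells, which are oligodendrocyte progenitors and immature oligodendrocytes, and CD11B+ microglia were isolated with magnetic beads, one after the other from the same cortices, and tissue was pooled for each sample. Cells were collected at P5, 2 h after the last injection according to the labels, or at P10, 5 days after it. The methods of the study give a longer interval at P5 and name another outbred strain, and the labels give P10 in the title, source and stage of the later samples but not in their description. RNA of each sample was labelled with 1 dye and hybridised to 1 Agilent array. This gave 8 groups of 6 arrays: PBS and IL1B, at P5 and at P10, in O4+ and in CD11B+ cells. Since samples are pools, p-values measure the spread between pools and not between pups.

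NF-kappaB dimers are held in the cytoplasm by inhibitor proteins of the IkappaB family until a cytokine such as IL1B activates the IKK kinases, which mark the inhibitors for degradation. The freed dimers enter the nucleus and activate inflammatory genes, and among the genes they activate are several of their own subunits and inhibitors, so that the response limits itself. In the brain the pathway is best known in microglia, but it can be engaged in many cell types.

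Levels are given as log2 of the background-subtracted intensity after quantile normalization over the 48 arrays, so that a difference of 1 is a 2-fold difference. Between 52.9% and 65.4% of the probes were above background on an array, as judged by the files. A gene was taken to have risen or fallen, or called, where limma, fitted to all 55681 probes of the groups compared, gave a Benjamini-Hochberg adjusted p under 0.05 and the ratio of the group medians was over 1.5. Where a gene had several probes, the one with the highest mean signal over all arrays was counted. Of the 10 genes, 9 were above background on all 48 arrays. The exception was Rel.

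The labels were first set against marker genes. All 12 measured markers of the oligodendrocyte lineage were above background on every O4+ array and were higher in O4+ than in CD11B+ cells of PBS pups at both ages. The marker with the most signal, Gpr17, a receptor of late progenitors, had a mean of 18.34 (SD 0.05, n = 6) in O4+ cells at P5 and 13.88 (SD 0.31, n = 6) in CD11B+ cells. Enpp6, a marker of newly forming oligodendrocytes, was above background on no CD11B+ array at P5. Of 15 microglia markers, 13 were lower in O4+ cells at each age. All 15 were nevertheless above background on every O4+ array, with Csf1r, the receptor that microglia need to survive, at a mean of 16.24 (SD 0.24, n = 6) in O4+ cells of PBS pups at P5 and at 17.94 (SD 0.12, n = 6) in CD11B+ cells. RNA of microglia marker genes was thus measured in the O4+ samples beside that of the oligodendrocyte lineage.

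**Figure D1:**
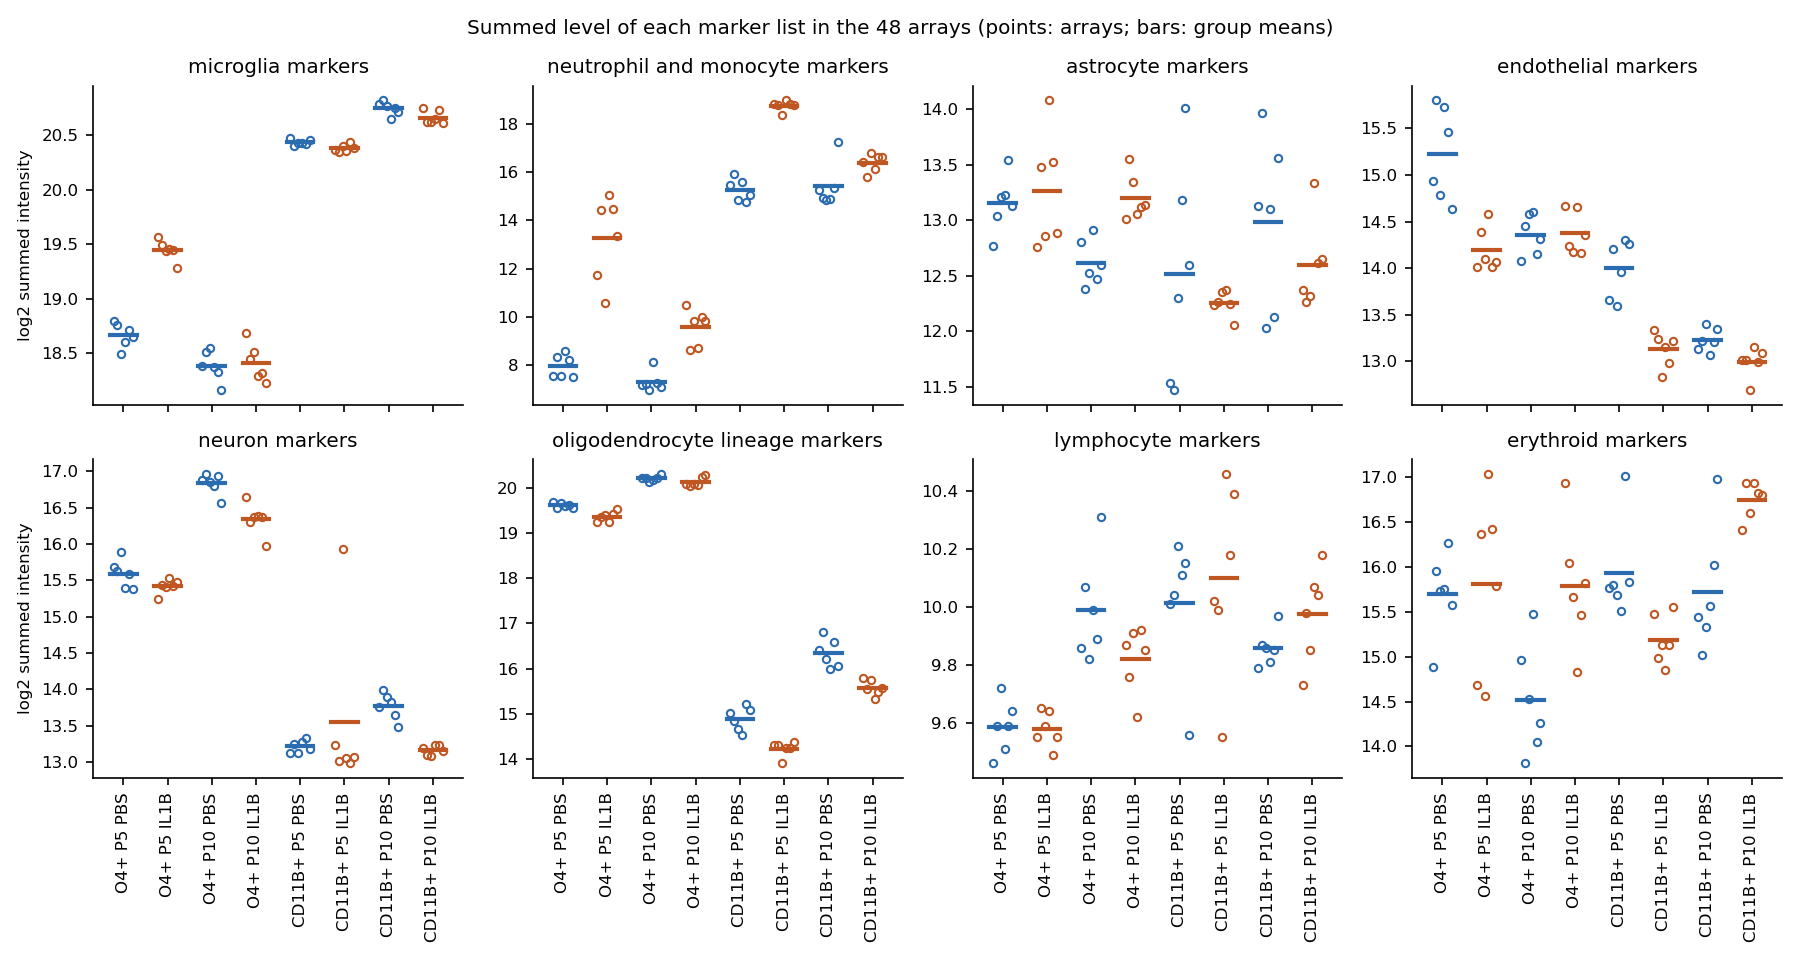
Summed level of 8 marker lists (y axis, log2 of summed intensity) in each of the 48 arrays (points) by group (x axis), with group means as bars. The median of the microglia list in O4+ cells at P5 was 18.68 with PBS and 19.45 with IL1B, and that of the neutrophil and monocyte list 7.88 and 13.88.

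Most of the 10 genes were higher in CD11B+ than in O4+ cells at any age and treatment. The 4 CD11B+ groups had higher means than the 4 O4+ groups for 9 of the genes, and among O4+ groups the IL1B group at P5 had the highest mean for each of the 10. Bcl3 was the exception to the first pattern. Its order ran from CD11B+ cells with IL1B at P5 (mean 14.03, SD 0.14) to CD11B+ PBS at P5 (12.37, SD 0.17), CD11B+ IL1B at P10 (12.19, SD 0.26), O4+ IL1B at P5 (12.14, SD 0.29), CD11B+ PBS at P10 (11.47, SD 0.23) and the other O4+ groups, at 8.97, 7.96 and 7.17 for PBS at P5, IL1B at P10 and PBS at P10 (n = 6 each). The ranges of neighbours from the second to the fifth place overlapped, and those of all other neighbours were apart.

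The orders of the other genes differed in which neighbours overlapped. For Rela, Nfkb1 and Rel the CD11B+ groups overlapped along the whole order: Rela ran from 15.05 to 14.85, Nfkb1 from 10.54 to 10.21 and Rel from 5.84 to 3.67. Nfkb2 and Relb were highest in CD11B+ cells with IL1B at P5, at 11.94 (SD 0.15) and 12.69 (SD 0.08), apart from the group that followed, and the next groups, CD11B+ IL1B at P10 and CD11B+ PBS at P5, overlapped with each other. Nfkbie was also highest there, at 11.72 (SD 0.12). Nfkbia, Nfkbiz and Tnfaip3 had other leading groups: Nfkbia and Tnfaip3 were highest in CD11B+ IL1B at P10, at 16.85 (SD 0.09) and 15.08 (SD 0.08), and Nfkbiz in CD11B+ PBS at P5, at 12.27 (SD 0.11), and each of these leaders overlapped with the group after it. In O4+ cells, Nfkbia, Nfkbiz and Tnfaip3 ran in the same order, P5 IL1B, P5 PBS, P10 IL1B and P10 PBS, with 15.03, 14.47, 13.19 and 12.58 for Nfkbia, 9.50, 8.85, 7.43 and 6.60 for Nfkbiz, and 13.00, 11.99, 10.50 and 9.35 for Tnfaip3. Nfkb1 and Rela had this order as well, at 8.49, 7.98, 7.54 and 7.33 and at 14.11, 13.74, 13.45 and 13.39, with P5 IL1B apart and the following groups overlapping in turn. The ranges of both P10 groups overlapped for Nfkbia and Nfkbiz and were apart for Tnfaip3. For Nfkb2 and Relb, PBS at P5 and both P10 groups of O4+ cells overlapped in sequence, at 8.01, 7.98 and 7.69 for Nfkb2 and 9.28, 9.19 and 9.09 for Relb. Nfkbie gave 9.16, 9.08 and 8.84 for O4+ IL1B at P10, PBS at P5 and PBS at P10, again with overlapping neighbours, and Rel 1.75, 1.62 and 1.48 for PBS at P5, PBS at P10 and IL1B at P10, none of which had an array above background.

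**Figure D2:**
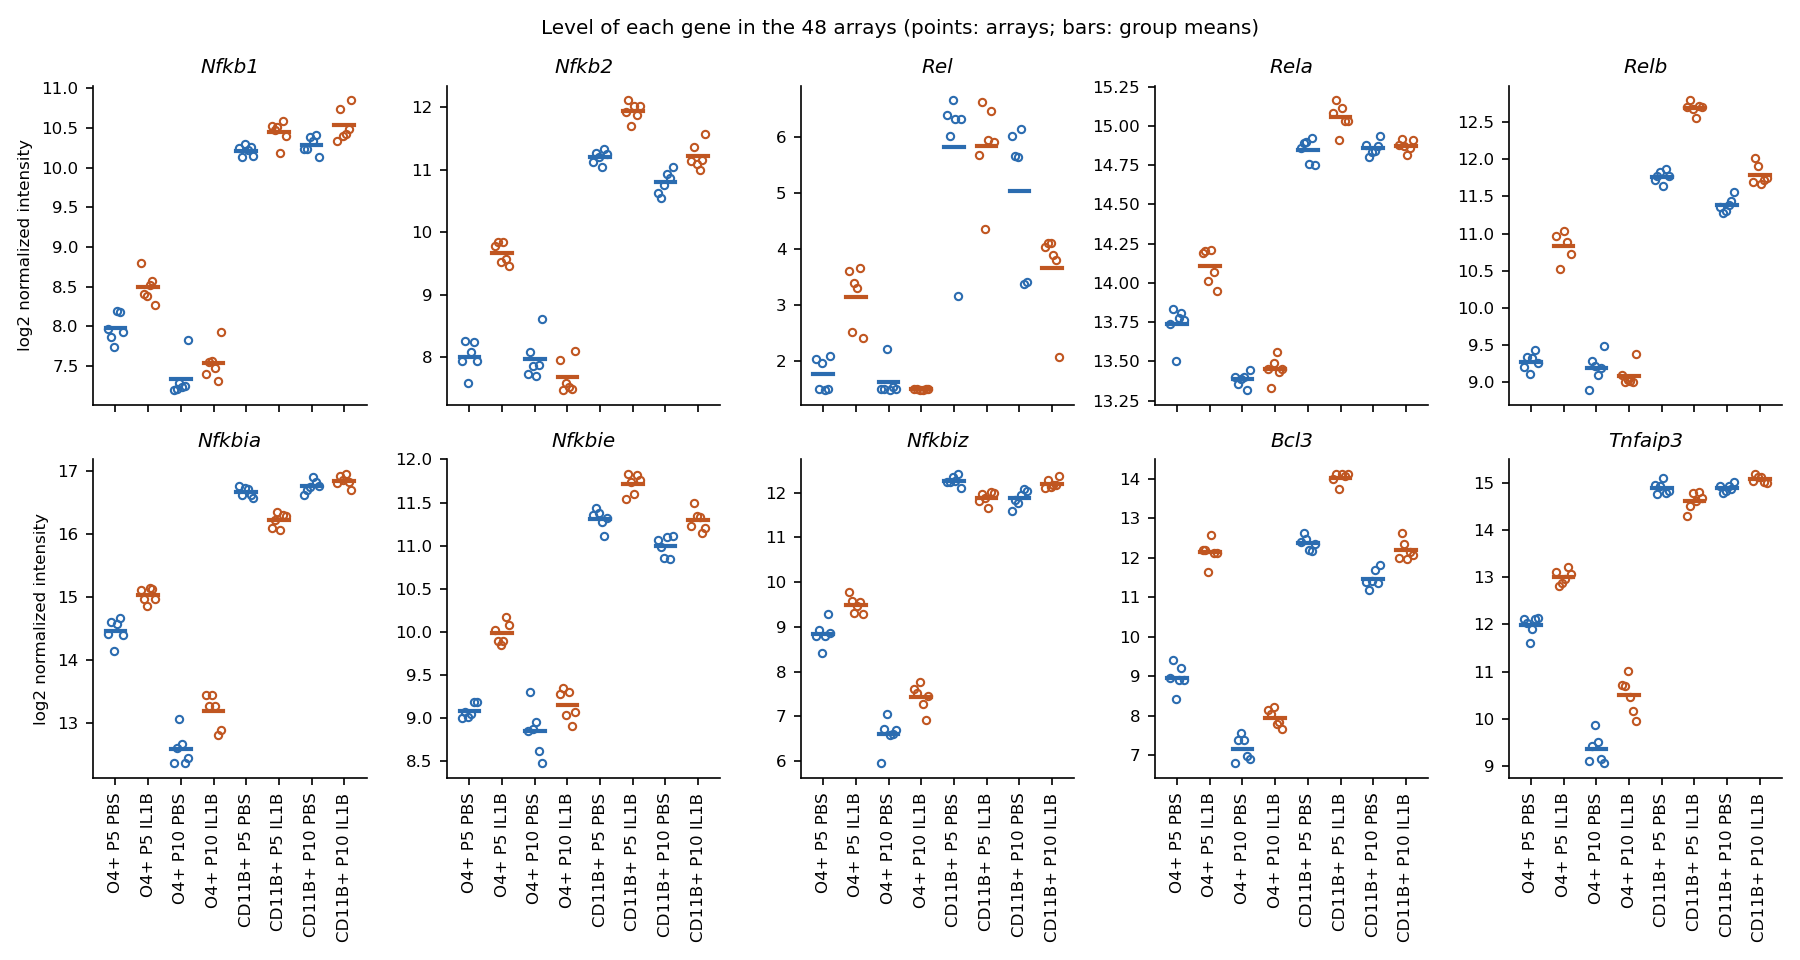
Level of each of the 10 genes (y axis, log2 normalized intensity) in each of the 48 arrays (points) by group (x axis), with group means as bars; blue is PBS and orange IL1B. Bcl3 in O4+ cells at P5 lay between 8.42 and 9.41 with PBS and between 11.65 and 12.56 with IL1B.

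The first comparison asked what IL1B did to the genes in O4+ cells at P5. All 10 genes were higher with IL1B, and 7 of them rose: the subunits Nfkb2, Rel and Relb and the inhibitors Nfkbie, Nfkbiz, Bcl3 and Tnfaip3. Of all probes, 3.5% rose and 1.52% fell, so that the share of the 10 genes that rose was above the background. Since the genes were chosen with earlier results known, such shares, here and below, are descriptions and not tests. The ranges of the PBS and IL1B groups were apart for 10 of 10 genes, against 4.64% of all probes with IL1B above and 6.89% with IL1B below. The median change was 0.96 for the 10 genes, with Rel at its fitted value, and 0.90 for the inhibitors, against -0.04 for all probes. No median is given for the subunits, since it would be the value of Rel, which was above background on no PBS array.

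Nfkb2 encodes a precursor that is processed to the partner of RelB in the noncanonical branch of the pathway. In O4+ cells at P5 its lowest, median and highest levels were 7.59, 8.01 and 8.26 with PBS and 9.46, 9.67 and 9.84 with IL1B. Each IL1B sample was above each PBS sample. The gene rose by 1.66 (SE 0.12, 3.17-fold between medians, 6 of 6 samples, limma adjusted p = 5.14e-06). Its promoter is shown because it holds several matches to the kappaB consensus, a motif of 10 bases bound by NF-kappaB, which was searched on both strands. Sequences are the 250 bases before a RefSeq gene start in build GRCm38.p6, given 5′ to 3′ on the strand of the gene with matches in capitals. In this window on the plus strand, at chr19:46304487-46304736, matches began 39, 38 and 11 bases before the start, of which the first 2 overlap.
Nfkb2: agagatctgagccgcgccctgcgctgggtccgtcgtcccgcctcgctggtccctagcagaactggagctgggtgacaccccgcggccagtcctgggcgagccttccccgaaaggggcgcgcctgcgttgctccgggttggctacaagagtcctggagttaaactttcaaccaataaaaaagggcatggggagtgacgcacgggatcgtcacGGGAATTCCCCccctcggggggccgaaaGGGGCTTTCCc
A match describes the letters of the window and not a binding site. Of 32851 promoter windows of this length, 3.9% held a match. Windows were found for 7 of the 10 genes, and 5 of these (Nfkb2, Rel, Nfkbia, Nfkbie and Tnfaip3) held at least 1 match in at least 1 window. Counted per window, as the 3.9% is, 7 of 10 windows of these genes held a match. Nfkb2 had 2 further windows with 1 match each, 236 and 225 bases before their starts.

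Relb encodes the subunit that pairs with the product of Nfkb2; its probe lies at chr7:20191722-20191781 in build mm9, the build of the files. Levels were 9.11, 9.29 and 9.43 with PBS and 10.52, 10.88 and 11.04 with IL1B, where 5 arrays were used because the spot of 1 array was non-uniform and left out. The groups did not overlap, and the gene rose by 1.55 (SE 0.10, 3.02-fold, 5 of 5 samples, limma adjusted p = 4.31e-06). Of 2 other Relb probes, one rose by 1.44 (limma adjusted p = 3.28e-06, 6 of 6 samples), and the other differed by -0.17 (adjusted p = 0.798, 5 of 6 samples above the PBS median) with overlapping groups. The probes of Relb therefore did not give the same result.

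Rel encodes c-Rel, a subunit best known from lymphoid and myeloid cells. Its signal was near background: above it on no PBS array and on 4 of 6 IL1B arrays of O4+ cells at P5. Measured levels were 1.47, 1.72 and 2.08 with PBS and 2.40, 3.34 and 3.66 with IL1B, and the groups did not overlap. By the rule that follows, the gene was at least 1.86-fold higher with IL1B (fitted change 1.39, SE 0.24, 6 of 6 samples, limma adjusted p = 0.0021). Where a group had no array above background, as here, the fold is given as "at least". It sets the mean of the brighter group against a floored mean of the dimmer group. On each array of the dimmer group, the lowest signal among probes well above background replaced the signal of the probe where that was lower. Since this floor can come from any probe, a fold given as "at least", here and below, is not a strict limit. In CD11B+ IL1B at P10 Rel had a median of 3.96, with 1 of 6 arrays above background. With normexp background correction the change of Rel was 0.19 and did not reach the fold threshold. The promoter window of Rel, at chr11:23770970-23771219 on the minus strand, held 2 overlapping matches to the kappaB consensus, 92 and 91 bases before the start.

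Nfkb1 and Rela encode the subunits of the most common dimer, and both missed the fold threshold. Nfkb1, with its probe at chr3:135254550-135254609 in mm9, ran through 7.74, 7.95 and 8.20 with PBS and 8.27, 8.47 and 8.80 with IL1B. The groups were apart by a small margin, with a difference of 0.51 (SE 0.10, 1.43-fold, 6 of 6 samples, limma adjusted p = 0.00448). A second Nfkb1 probe passed both thresholds with 0.79 (limma adjusted p = 5.92e-05, 1.77-fold, 6 of 6 samples). Rela ran through 13.51, 13.77 and 13.83 with PBS and 13.95, 14.13 and 14.21 with IL1B. Its difference was 0.37 (SE 0.07, 1.28-fold, 6 of 6 samples, limma adjusted p = 0.00276), also without overlap of the groups. The promoter window of Rela held no match to the kappaB consensus.

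Bcl3 had the largest change of the 10 genes. It encodes a nuclear IkappaB protein that binds dimers on DNA. Levels were 8.42, 8.93 and 9.41 with PBS and 11.65, 12.15 and 12.56 with IL1B, so that the lowest IL1B sample was far above the highest PBS sample. Bcl3 rose by 3.17 (SE 0.17, 9.33-fold, 6 of 6 samples, limma adjusted p = 9.95e-07). Its promoter window at chr7:19822756-19823005, on the minus strand, is shown for comparison with that of Nfkb2, since it held no match to the kappaB consensus.
Bcl3: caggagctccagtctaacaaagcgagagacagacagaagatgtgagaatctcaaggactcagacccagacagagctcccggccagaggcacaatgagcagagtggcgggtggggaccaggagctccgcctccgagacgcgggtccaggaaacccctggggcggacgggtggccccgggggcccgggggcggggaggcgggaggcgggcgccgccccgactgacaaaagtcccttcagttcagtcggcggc

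Tnfaip3 encodes an enzyme that edits ubiquitin chains and shuts down signalling upstream of the IKK kinases. It ran through 11.60, 12.08 and 12.14 with PBS and 12.81, 13.01 and 13.21 with IL1B. The groups were apart, and the gene rose by 1.02 (SE 0.10, 1.91-fold, 6 of 6 samples, limma adjusted p = 5.38e-05). Nfkbie, which encodes IkappaB epsilon, a cytoplasmic inhibitor, ran through 9.0, 9.05 and 9.19 with PBS and 9.84, 9.96 and 10.17 with IL1B. It rose by 0.90 (SE 0.06, 1.88-fold, 6 of 6 samples, limma adjusted p = 5.09e-06), again without overlap. The promoter windows of both genes are shown because both rose and both hold matches: that of Tnfaip3 at chr10:19015411-19015660, minus strand, with matches 125 and 12 bases before the start, and that of Nfkbie at chr17:45555450-45555699, plus strand, with 1 match 106 bases before it. Another window of Tnfaip3, at chr10:19011964-19012213, held none.
Tnfaip3: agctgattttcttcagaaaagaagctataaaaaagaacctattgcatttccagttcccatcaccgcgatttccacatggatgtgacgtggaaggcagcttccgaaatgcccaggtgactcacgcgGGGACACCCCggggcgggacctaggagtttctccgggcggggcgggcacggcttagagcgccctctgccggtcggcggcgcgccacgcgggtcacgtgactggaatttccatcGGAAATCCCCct
Nfkbie: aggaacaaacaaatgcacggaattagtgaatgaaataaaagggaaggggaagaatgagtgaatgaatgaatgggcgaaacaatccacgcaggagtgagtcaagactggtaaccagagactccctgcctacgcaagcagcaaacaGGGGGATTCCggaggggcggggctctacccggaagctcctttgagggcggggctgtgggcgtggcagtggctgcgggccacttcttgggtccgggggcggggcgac

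Nfkbia encodes IkappaB alpha, the inhibitor that is degraded and made anew in each round of activation. Levels were 14.14, 14.49 and 14.66 with PBS and 14.85, 15.05 and 15.15 with IL1B. The groups were apart, but the ratio of medians was 1.47, so that the gene missed the fold threshold (difference 0.57, SE 0.09, 6 of 6 samples, limma adjusted p = 0.00122). It passed that threshold without PBS sample 2 (0.59), 4 (0.59) or 5 (0.60), or without IL1B sample 2 (0.58), 3 (0.60) or 6 (0.58), which raised the count of genes from 7 to 8. The bracketed values are differences of means, whereas the threshold was applied to medians. Nfkbiz, with its probe at chr16:55817859-55817918 in mm9, encodes a nuclear IkappaB that helps to activate a set of late inflammatory genes. It is grouped with the inhibitors by family and not by this function. It ran through 8.41, 8.83 and 9.28 with PBS and 9.29, 9.52 and 9.78 with IL1B, where the ranges only just failed to meet. Nfkbiz rose by 0.65 (SE 0.13, 1.61-fold, 6 of 6 samples, limma adjusted p = 0.00516), and with the deposited matrix its change was 0.52, below the fold threshold. The promoter window of Nfkbia, at chr12:55492648-55492897 on the minus strand, is shown as that of the best known feedback inhibitor, with 1 match 29 bases before the start.
Nfkbia: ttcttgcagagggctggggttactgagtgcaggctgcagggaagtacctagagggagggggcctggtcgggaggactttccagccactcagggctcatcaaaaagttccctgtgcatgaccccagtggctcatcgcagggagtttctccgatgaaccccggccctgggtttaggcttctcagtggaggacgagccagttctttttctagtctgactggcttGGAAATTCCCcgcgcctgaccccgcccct

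The same direction was found within slides. On slide 1, with 4 PBS arrays and 1 IL1B array, the 7 genes that rose differed by 0.63 to 3.07, and on slide 4, with 2 PBS arrays and 1 IL1B array, the 6 of them measured there differed by 0.92 to 3.52. With slide as a block the changes were 1.85 for Nfkb2, 1.65 for Relb, 0.87 for Nfkbie, 0.87 for Nfkbiz, 3.27 for Bcl3 and 0.98 for Tnfaip3, and these genes and Rel passed both thresholds (largest adjusted p = 0.0436, for Rel; limma).

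Other genes of the pathway also rose in O4+ cells at P5, some in each of the 5 lists. The lists too were chosen with earlier results of these data known, so that their counts are descriptions. Of 10 receptors that signal to NF-kappaB, 6 rose (median 0.95), among them Tlr2 by 1.68, the TNF receptor Tnfrsf1b by 1.48 and the IL1 receptor Il1r1 by 1.29. Of 18 adaptors and ubiquitin ligases, 3 rose (median 0.12): Birc3 by 1.11, Myd88 by 1.08 and Traf1 by 0.68. Of 11 IKK kinases and upstream kinases, 4 rose (median 0.26): Map3k8 by 1.76, Ikbke, at least 2.54-fold higher, Ripk2 by 0.99 and Map3k14 by 0.71. The genes of the core IKK complex were not among them. Among 18 other brakes on the pathway, 7 rose and 1 fell (median -0.03): the ribonuclease gene Zc3h12a rose by 3.25, the decoy receptor Il1r2 by 2.53, Tnip1 by 0.97 and Irak3 by 0.93, and Sigirr fell by 0.91. Of 30 target genes, 27 rose (median 1.15), led by Lcn2, which rose by 6.91, and by Saa3, Csf3 and Sele, which were at least 22.6-fold, 6.97-fold and 5.60-fold higher.

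Marker genes of other cell types moved in the same comparison. Of 15 microglia markers, 11 rose (median 1.13). Their summed level ran through 18.49, 18.68 and 18.80 with PBS and 19.28, 19.45 and 19.57 with IL1B, and Csf1r, the most abundant, rose by 1.10. All 9 measured neutrophil and monocyte markers rose (Ly6c2 was not found on the array). Their summed level ran through 7.48, 7.88 and 8.57 with PBS and 10.56, 13.88 and 15.06 with IL1B, a wide spread among the IL1B samples, and S100a9, the most abundant, rose by 6.22. On PBS arrays Ltf, Retnlg, Ngp and Ccr2 were not above background. Of 8 endothelial markers, 5 fell (median -0.86, Cldn5 by -1.31). Of 5 lymphocyte markers Ms4a1 was at least 1.97-fold higher, while Cd3e, the one with the most signal, had means of 9.47 with PBS and 9.45 with IL1B. Of 12 oligodendrocyte markers (median -0.30) Enpp6 fell by 0.56 and 9 were at an unadjusted p under 0.05 in limma. Their summed level did not overlap, at 19.56, 19.60 and 19.69 with PBS and 19.24, 19.37 and 19.52 with IL1B. The part that cells other than O4+ cells had in the changes of the 10 genes was not tested, and in such bulk samples fewer cells of a type and less RNA per cell cannot be told apart.

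**Figure D3:**
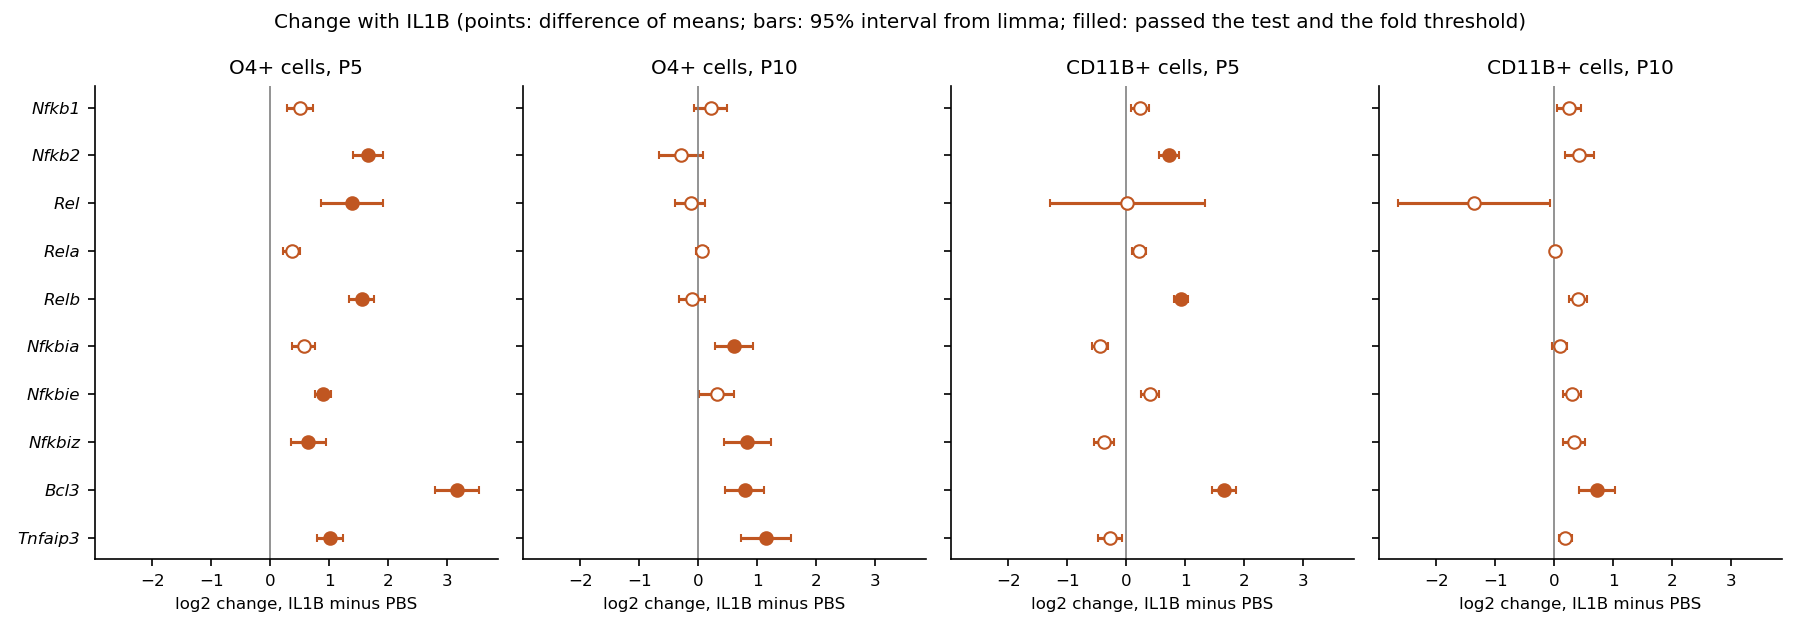
Change of each of the 10 genes with IL1B (x axis, log2 difference of means) in the 4 pairs of groups, with 95% intervals from limma; filled points passed the test and the fold threshold. In O4+ cells the subunits lie near 0 at P10 (-0.29 to 0.21), whereas 4 of the 5 inhibitors are at 0.60 or above.

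At P10, 5 days after the last injection, 4 of the 5 genes grouped as inhibitors were still higher in O4+ cells of IL1B pups. No subunit passed the test (0 of 5 in limma, and 0 at an unadjusted p under 0.05). Tnfaip3, Nfkbiz, Bcl3 and Nfkbia rose, 4 of 10 genes, against 2.62% of all probes that rose and 1.51% that fell. The median change was 0.26 for the 10 genes and -0.11 for the subunits, both with Rel at its fitted value, 0.79 for the inhibitors and -0.02 for all probes. The ranges were apart for 2 genes, both with IL1B above, against 2.91% of all probes, and against 3.33% with IL1B below.

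Tnfaip3 ran through 9.05, 9.29 and 9.87 with PBS and 9.94, 10.57 and 11 with IL1B. The groups were apart, and the gene rose by 1.15 (SE 0.19, 2.44-fold, 6 of 6 samples, limma adjusted p = 0.00515). Bcl3 ran through 6.79, 7.18 and 7.56 and then 7.65, 7.95 and 8.23, also apart, and rose by 0.79 (SE 0.15, 1.70-fold, 6 of 6 samples, limma adjusted p = 0.00806). Nfkbiz ran through 5.95, 6.65 and 7.05 with PBS and 6.91, 7.49 and 7.77 with IL1B. Here the groups overlapped, and the gene rose by 0.83 (SE 0.18, 1.79-fold, limma adjusted p = 0.0154, 6 of 6 samples above the PBS median). Nfkbia, at 12.36, 12.52 and 13.07 and then 12.82, 13.27 and 13.44, overlapped as well and rose by 0.60 (SE 0.15, 1.68-fold, limma adjusted p = 0.0246, 6 of 6 samples above the PBS median).

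Neither Nfkbia nor Bcl3 at P10 was independent of single arrays. Nfkbia had an adjusted p of 0.0509 without PBS sample 2 (change 0.61), 0.0553 without PBS sample 5 (0.56), 0.0563 without IL1B sample 2 (0.59), 0.0563 without IL1B sample 3 (0.55) and 0.0538 without IL1B sample 4 (0.59) in limma. It also missed a threshold with scaling to the 75th percentile (0.46), with the deposited matrix (0.48) and with slide as a block (0.67, limma adjusted p = 0.0526). Bcl3 was below the fold threshold without PBS sample 1 (0.71), 5 (0.75) or 6 (0.74) and with normexp (0.59). Without PBS sample 5 the count fell from 4 to 2. Blocking by slide, Tnfaip3, Nfkbiz and Bcl3 changed by 1.19, 0.93 and 0.85. Within slide 5, with 5 PBS and 2 IL1B arrays, the 4 genes were higher by 0.75 to 1.30, and within slide 9, with 1 array of each group, by 0.44 to 0.89.

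The other inhibitor and the subunits did not pass the test at P10. Nfkbie ran through 8.47, 8.86 and 9.30 with PBS and 8.91, 9.17 and 9.35 with IL1B, an overlap, with a difference of 0.31 (SE 0.13, 6 of 6 samples above the PBS median, limma adjusted p = 0.175). The subunits overlapped between groups, with differences of 0.21 for Nfkb1, -0.29 for Nfkb2, 0.07 for Rela and -0.11 for Relb. Rel was above background on no array of either group. A test that was not passed does not show equal levels.

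Fewer genes of the 5 pathway lists rose in O4+ cells at P10 than at P5, and most of those that rose were targets. Of 30 target genes, 18 rose (median 0.71), led by Il1b by 2.79, Cxcl1 by 2.09, Cxcl2 by 1.75 and Ccl3 by 1.54. Map3k8 rose by 1.05 as 1 of 11 kinases (median 0.14), Tlr2 by 0.90 as 1 of 10 receptors (median 0.29), and of 18 other brakes Nfkbid rose by 1.31 and Otud7b fell by 0.62 (median -0.07). The 18 adaptors had a median of -0.01 and 0 passed both thresholds in limma (6 at an unadjusted p under 0.05). Of 15 microglia markers 8 rose (median 0.66), while their summed level overlapped, at 18.16, 18.38 and 18.55 with PBS and 18.23, 18.38 and 18.69 with IL1B; Csf1r, the most abundant, differed by 0.46 (limma adjusted p = 0.106). Of 9 neutrophil and monocyte markers 5 rose, with summed levels of 6.94, 7.20 and 8.10 and of 8.63, 9.84 and 10.50, and S100a9 rose by 3.81. Of these markers Ltf, Retnlg, Ngp and Ccr2 were above background on no PBS array. Of 6 astrocyte markers 3 rose (median 0.58, Aqp4 by 0.77), the erythroid marker Hba-a1 rose by 1.28, and of the oligodendrocyte markers Pdgfra rose by 1.01, Cspg4 rose by 0.78 and Mog fell by 0.91. Their part in the changes of the 10 genes was not tested.

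Whether the response differed between the ages was tested with the interaction term in limma, at an adjusted p under 0.05 and without a fold threshold. In O4+ cells the response of 6 of 10 genes was lower at P10 than at P5: the subunits Nfkb2, Rel, Rela and Relb and the inhibitors Nfkbie and Bcl3. Rel is counted here by the test alone, since 3 of the 4 groups had no array on which it was above background. Of all probes, 7.97% had a higher and 5.48% a lower response at P10, so that the share of the 10 genes was above the background for lower responses. Nfkb1, Nfkbia, Nfkbiz and Tnfaip3 did not pass the test.

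Bcl3 had the largest difference. Its response was 3.17 at P5 and 0.79 at P10, a difference of -2.38 (95% interval -2.87 to -1.90, limma adjusted p = 9.72e-07). For Nfkb2 the responses were 1.66 and -0.29, a difference of -1.95 (-2.38 to -1.51, limma adjusted p = 3.01e-06), and for Relb 1.55 and -0.11, a difference of -1.66 (-1.95 to -1.36, limma adjusted p = 2.66e-07). For Rel (limma adjusted p = 0.000692) no size is given, since it was above background only with IL1B at P5. It was not called when all 8 groups were fitted together (adjusted p = 0.142, limma). Smaller differences were found for Nfkbie, at -0.59 (-0.90 to -0.28, limma adjusted p = 0.0107), and for Rela, at -0.30 (-0.47 to -0.13, limma adjusted p = 0.0151). Nfkbie was not called with the deposited matrix (-0.40, limma adjusted p = 0.078) or with slide as a block (-0.42, adjusted p = 0.183).

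The other genes had intervals around 0. These ran from -0.33 to 0.41 for Nfkbia, from -0.30 to 0.65 for Nfkbiz, from -0.33 to 0.60 for Tnfaip3 and from -0.65 to 0.04 for Nfkb1. Blocking by slide, Bcl3 differed by -2.42, Nfkb2 by -2.08, Relb by -1.74 and Rela by -0.46. Of the other lists, 4 of 11 kinases (Ripk2 by -0.87, Map3k8 by -0.71), 3 of 18 adaptors (Myd88 by -1.06), 4 of 10 receptors (Tlr2 by -0.77), 6 of 18 other brakes (Il1r2 by -2.51, Zc3h12a by -2.28) and 13 of 30 targets (Lcn2 by -6.53) had a lower response at P10, and 2 brakes and 1 target a higher one. A lower response at P10 was also found for 8 of 15 microglia and 5 of 9 neutrophil and monocyte markers, whose part was not tested. The P10 groups were collected at another time after the last injection as well as at another age, and these cannot be told apart.

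**Figure D4:**
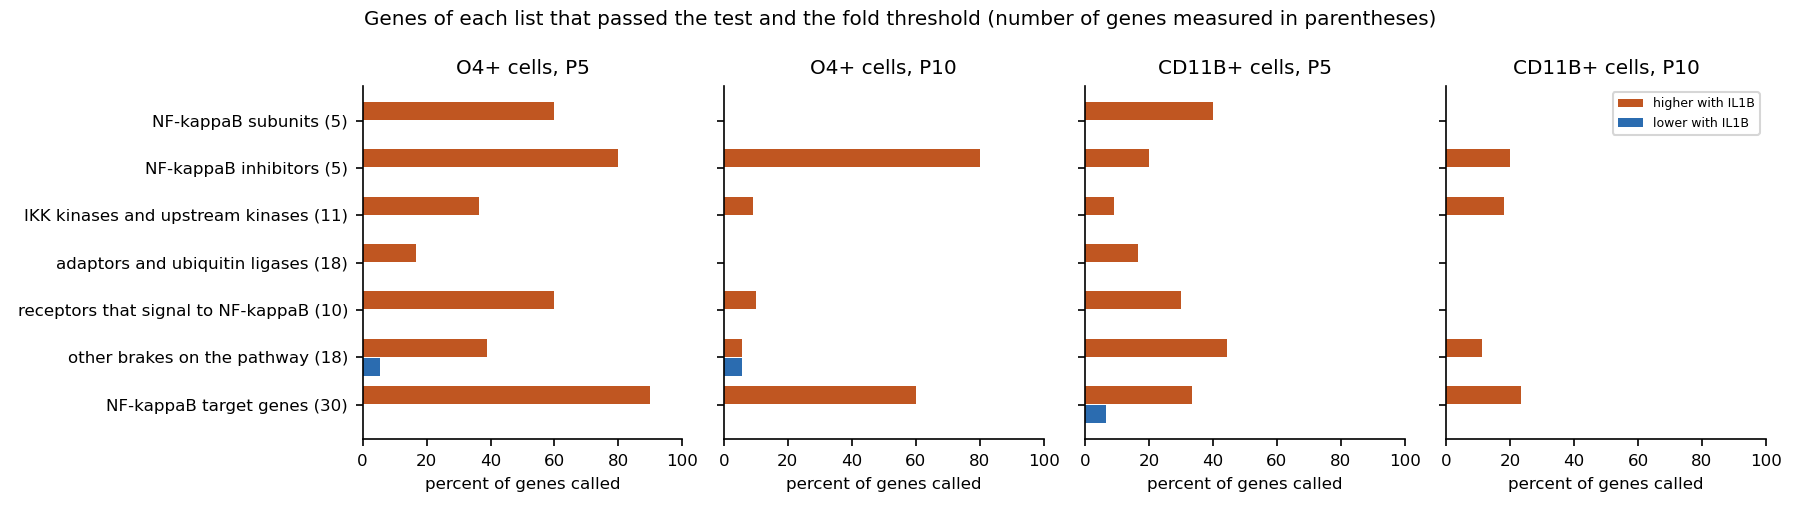
Percent of the genes of 7 lists (x axis) that passed the test and the fold threshold, higher (orange) or lower (blue) with IL1B, in the 4 pairs of groups. In O4+ cells at P5, 3 of 5 subunits, 4 of 5 inhibitors and 27 of 30 target genes rose.

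In CD11B+ cells at P5 the genes did not move together. Bcl3, Relb and Nfkb2 rose, whereas Nfkbia, Nfkbiz and Tnfaip3, which were higher with IL1B in O4+ cells, lay lower with IL1B. So 3 of 10 genes rose, against 3.98% of all probes that rose and 5.01% that fell. The ranges were apart for 4 genes with IL1B above and for 2 genes with IL1B below, against 5.86% and 9.98% of all probes. The median change was 0.22 for the 10 genes, 0.23 for the subunits and -0.28 for the inhibitors, and -0.02 for all probes.

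Relb ran through 11.64, 11.78 and 11.86 with PBS and 12.55, 12.71 and 12.79 with IL1B. Without overlap, Relb rose by 0.92 (SE 0.05, 1.90-fold, 6 of 6 samples, limma adjusted p = 5.31e-07). A second Relb probe rose by 0.93 (limma adjusted p = 4.71e-07, 6 of 6 samples), and the remaining one gave 0.43 (adjusted p = 0.0882, 5 of 6 samples). Nfkb2 ran through 11.05, 11.23 and 11.33 with PBS and 11.69, 11.97 and 12.10 with IL1B, also apart. It rose by 0.73 (SE 0.08, 1.67-fold, 6 of 6 samples, limma adjusted p = 3.92e-05). Nfkb1 (0.23, SE 0.07, 5 of 6 samples, limma adjusted p = 0.0301) and Rela (0.21, SE 0.05, 6 of 6 samples, limma adjusted p = 0.017) overlapped between groups and missed the fold threshold. A second Nfkb1 probe was apart but did not pass the test (0.63, limma adjusted p = 0.135). Rel spread widely, from 3.16 to 6.66 with PBS and from 4.35 to 6.64 with IL1B, and differed by 0.02 (SE 0.60, limma adjusted p = 0.985).

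Bcl3 again had the largest change. It ran through 12.18, 12.37 and 12.62 with PBS and 13.75, 14.09 and 14.13 with IL1B. Again without overlap, Bcl3 rose by 1.66 (SE 0.09, 3.29-fold, 6 of 6 samples, limma adjusted p = 4.09e-07). Nfkbie, at 11.11, 11.34 and 11.43 and then 11.54, 11.75 and 11.83, was apart but missed the fold threshold (0.40, SE 0.07, 1.33-fold, 6 of 6 samples, limma adjusted p = 0.00159).

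The other 3 inhibitors lay on the other side. Nfkbia ran through 16.57, 16.67 and 16.76 with PBS and 16.07, 16.26 and 16.35 with IL1B. Each IL1B sample was below each PBS sample, with a difference of -0.44 (SE 0.06, 1.33-fold, 6 of 6 samples lower, limma adjusted p = 0.000314) that missed the fold threshold. Nfkbiz was at 12.09, 12.25 and 12.42 and then at 11.66, 11.93 and 12.02. Its groups were apart too (-0.38, SE 0.08, 1.26-fold, 6 of 6 samples lower, limma adjusted p = 0.0036). Tnfaip3 overlapped, at 14.77, 14.88 and 15.11 and then 14.31, 14.65 and 14.79 (-0.28, SE 0.09, 6 of 6 samples below the PBS median, limma adjusted p = 0.0519). Within slide 4, with 1 PBS and 4 IL1B arrays, the 3 genes that rose were higher by 1.75 (Bcl3), 0.91 (Relb) and 0.75 (Nfkb2). Only slide 4 held both groups, so that a fit with slide as a block gives these same values and rests on that 1 PBS array. In it Nfkbia differed by -0.34 (adjusted p = 0.153), Nfkbiz by -0.18 (adjusted p = 0.591) and Tnfaip3 by -0.18 (adjusted p = 0.763), and did not pass in limma.

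Among the other lists in CD11B+ cells at P5 the brakes had the most genes that rose outside the targets. Of 18 brakes 8 rose (median 0.31), led by Il1r2 by 4.01, the receptor antagonist Il1rn by 2.15, Irak3 by 1.75 and Zc3h12a by 1.69. Of 30 targets 10 rose and 2 fell (median 0.34): Saa3 rose by 5.96, Lcn2 by 4.77, Nos2 by 2.92 and Vcam1 by 2.26, while Cxcl1 fell by 0.67 and Tnf fell by 0.65. Ikbke rose by 2.03 as 1 of 11 kinases (median 0.25), and 3 of 18 adaptors (Traf1 by 2.22, Tank by 0.77, Myd88 by 0.64; median 0.15) and 3 of 10 receptors (Cd40 by 1.69, Il1rap by 1.37, Il1r1 by 0.71; median 0.28) rose.

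Markers of neutrophils and monocytes moved in these samples. All 9 rose (median 4.02), with summed levels of 14.76, 15.24 and 15.92 with PBS and 18.38, 18.81 and 18.98 with IL1B, and S100a9, the most abundant, rose by 3.1. All 9 were above background on at least 1 array of each group. The summed microglia markers overlapped, at 20.40, 20.43 and 20.48 and then 20.35, 20.38 and 20.44. Of the 15 genes 2 fell, Fcrls (-0.77) and P2ry12 (-0.67), and Csf1r differed by 0.02 (limma adjusted p = 0.852). Of 8 endothelial markers 6 fell (Cldn5 -1.53), of 12 oligodendrocyte markers 4 fell (Gpr17 -1.08) and 2 rose, and of 5 erythroid markers Hba-a1 fell by 0.75. Of 5 lymphocyte markers Cd3g, above background on no PBS array, was at least 6.62-fold higher. Cd3e, the one with the most signal, had means of 9.86 with PBS and 9.84 with IL1B. Of 6 astrocyte markers Gja1 rose by 0.78, while Slc1a3, the one with the most signal, had means of 11.76 and 11.59. The summed astrocyte level overlapped, with medians of 12.45 and 12.26. IL1B replicate 3 stood apart in its summed neuron markers, at 15.93 against 12.98 to 13.23 in the other 5. CD11B is carried by neutrophils and monocytes as well as by microglia, and the part of these cells in the changes of the 10 genes was not tested.

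At P10 Bcl3 was the only one of the 10 genes that rose in CD11B+ cells, 1 of 10, against 1.02% of all probes that rose and 0.986% that fell. The ranges were apart for 4 genes, all with IL1B above, against 2.06% of all probes, and against 1.82% with IL1B below. The median change was 0.27, against 0.00 for all probes. Bcl3 ran through 11.19, 11.39 and 11.81 with PBS and 11.97, 12.11 and 12.64 with IL1B. The groups were apart, and Bcl3 rose by 0.72 (SE 0.14, 1.64-fold, 6 of 6 samples, limma adjusted p = 0.0198). With slide as a block it differed by 0.63 (adjusted p = 0.409, limma), a fit in which 2 of all 55681 probes passed both thresholds. That fit rests on slide 7, the only one with both groups, with 2 PBS and 5 IL1B arrays.

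Smaller differences at P10 missed the fold threshold. Relb, at 11.27, 11.37 and 11.56 and then 11.67, 11.73 and 12.01, was apart (0.40, SE 0.07, 6 of 6 samples, limma adjusted p = 0.0178). Nfkbie was apart as well, at 10.85, 11.03 and 11.11 and then 11.14, 11.28 and 11.50 (0.30, SE 0.07, 6 of 6 samples, limma adjusted p = 0.0368), and so was Nfkbiz, at 11.59, 11.89 and 12.08 and then 12.10, 12.17 and 12.38 (0.33, SE 0.09, 6 of 6 samples, limma adjusted p = 0.0493). Nfkb2 overlapped by a little (0.42, SE 0.11, 6 of 6 samples, limma adjusted p = 0.0499). Blocking by slide, 0 of these 4 passed in limma: Relb differed by 0.30 (adjusted p = 0.406), Nfkbie by 0.33 (0.408), Nfkbiz by 0.11 (0.795) and Nfkb2 by 0.19 (0.667). Nfkb1 (0.25), Tnfaip3 (0.18), Nfkbia (0.09) and Rela (0.01) did not pass the test. A second Nfkb1 probe had the other direction, with -0.65 (1.78-fold, 6 of 6 samples below the PBS median, limma adjusted p = 0.139). Rel was above background on 4 PBS arrays and 1 IL1B array and differed by -1.37 (SE 0.59, 6 of 6 samples below the PBS median, limma adjusted p = 0.188). With all 8 groups in 1 fit Rel was called lower (adjusted p = 0.0481, limma), and with slide as a block its difference turned to 0.59.

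Few other genes of the pathway rose in CD11B+ cells at P10. Of 30 targets 7 rose (median 0.38), led by Saa3 by 2.92, Ccl5 by 2.90, Tnfaip2 by 1.30 and Tnf by 0.88. Of 11 kinases Ikbke rose by 1.36 and Map3k8 by 0.57, and of 18 brakes Irak3 rose by 0.94 and Il1r2 by 0.92. Of 18 adaptors and 10 receptors 0 passed both thresholds in limma (6 and 4 at an unadjusted p under 0.05). The same held for the 15 microglia markers (0 in limma, 9 at an unadjusted p under 0.05), with summed levels of 20.65, 20.76 and 20.82 and then 20.61, 20.63 and 20.75. Of 9 neutrophil and monocyte markers Cxcr2 fell by 0.64, while the other 8 were higher with IL1B and did not pass in limma; the median was 0.96, 8 of the 9 were at an unadjusted p under 0.05, and S100a9, the most abundant, differed by 0.93 (limma adjusted p = 0.154). Their summed level overlapped, at 14.83, 15.09 and 17.27 with PBS, where replicate 6 was the highest, and 15.81, 16.52 and 16.79 with IL1B. Of 5 erythroid markers (median 1.02) 0 passed in limma and 3 were at an unadjusted p under 0.05, among them Hba-a1 with 1.02 (limma adjusted p = 0.0555). Of 12 oligodendrocyte markers 3 fell (Gpr17 -0.58), and the neuron marker Snap25 fell by 0.69. The astrocyte marker Aldh1l1 rose by 0.90, but Slc1a3, the one with the most signal, was lower with IL1B. Its means were 12.52 (SD 0.99) with PBS and 11.46 (SD 0.62) with IL1B. The summed astrocyte level overlapped, with medians of 13.12 and 12.49. The lymphocyte marker Cd3g rose by 2.65, while Cd3e, the one with the most signal, had means of 9.72 and 9.8. The part of these cells was not tested.

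Between ages the responses of CD11B+ cells shifted in both directions. The response of Nfkbiz, Nfkbia and Tnfaip3 was higher at P10, and that of Bcl3, Relb and Rela lower: 3 and 3 of 10 genes, against 10.4% of all probes with a higher and 6.15% with a lower response. Nfkbiz went from -0.38 to 0.33, a difference of 0.71 (95% interval 0.47 to 0.95, limma adjusted p = 0.000166). Nfkbia went from -0.44 to 0.09 (0.53, 0.35 to 0.71, limma adjusted p = 0.000131) and Tnfaip3 from -0.28 to 0.18 (0.46, 0.24 to 0.69, limma adjusted p = 0.00375). Bcl3 went from 1.66 to 0.72 (-0.94, -1.28 to -0.59, limma adjusted p = 0.000379), Relb from 0.92 to 0.40 (-0.52, -0.71 to -0.33, limma adjusted p = 0.000285) and Rela from 0.21 to 0.01 (-0.19, -0.33 to -0.06, limma adjusted p = 0.0394). Nfkb2 (-0.31), Rel (-1.39), Nfkbie (-0.10) and Nfkb1 (0.02) did not pass the test.

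Several of these shifts depended on the processing. Blocking by slide, Nfkbiz differed by 0.29 (adjusted p = 0.434), Nfkbia by 0.43 (adjusted p = 0.107) and Tnfaip3 by 0.33 (adjusted p = 0.454) in limma and were not called, while Bcl3 (-1.12), Relb (-0.62) and Rela (-0.37) were; at each age a single slide held both groups. The deposited matrix ended the call of Relb (-0.33, limma adjusted p = 0.233) and of Rela (-0.06, adjusted p = 0.855), and with all 8 groups in 1 fit Tnfaip3 was not called (adjusted p = 0.0581, limma). With scan day as a block, an alternative chosen after seeing the data, Nfkb2 was called (-0.47, limma adjusted p = 0.0176). The mean over the probes of Nfkb1 turned its difference to -0.63 (adjusted p = 0.0212, limma).

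Single arrays decided the call of Rela, which was lost on leaving out any 1 of 14 arrays. At P5 these were PBS sample 1 (-0.20, limma adjusted p = 0.0507), 4 (-0.18, 0.0685) and 6 (-0.17, 0.0692) and IL1B sample 1 (-0.19, 0.055), 2 (-0.17, 0.0716) and 4 (-0.18, 0.0633). At P10 they were PBS sample 1 (-0.19, limma adjusted p = 0.0603), 4 (-0.20, 0.0507), 5 (-0.19, 0.0526) and 6 (-0.18, 0.0597) and IL1B sample 1 (-0.19, 0.0533), 3 (-0.19, 0.054), 4 (-0.18, 0.0671) and 5 (-0.19, 0.0581). Nfkb2 was called without IL1B sample 6 at P10 (-0.38, limma adjusted p = 0.0415). Of the other lists, brakes (8 of 18 lower and 2 higher, Il1r2 by -3.10), adaptors (5 of 18 lower and 3 higher, Traf1 by -1.77), receptors (3 of 10 lower, Il1rap by -1.27) and targets (8 of 30 lower, Lcn2 by -3.42 and Nos2 by -3.30, and 7 higher) held genes whose response differed. Of 9 neutrophil and monocyte markers 8 had a lower response at P10.

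Set side by side at P5, the response of 7 of 10 genes was higher in O4+ than in CD11B+ cells, against 6.93% of all probes with a higher and 3.78% with a lower response. All 5 inhibitors and the subunits Nfkb2 and Relb were among them, and the median difference was 0.97, with Rel at its fitted value, against -0.01 for all probes. Tnfaip3 (1.30, 95% interval 1.01 to 1.59, limma adjusted p = 1.32e-06), Nfkbia (1.01, 0.78 to 1.24, limma adjusted p = 1.51e-06) and Nfkbiz (1.03, 0.71 to 1.35, limma adjusted p = 7.49e-05) were higher with IL1B in O4+ cells and lower in CD11B+ cells, where none of the 3 was called, Tnfaip3 did not pass the test, and none passed with slide as a block. Bcl3 (1.51, 1.09 to 1.92, limma adjusted p = 1.64e-05), Nfkb2 (0.93, 0.63 to 1.23, limma adjusted p = 9.4e-05), Relb (0.63, 0.40 to 0.85, limma adjusted p = 0.00042) and Nfkbie (0.50, 0.30 to 0.70, limma adjusted p = 0.0011) were higher with IL1B in both. Nfkb1 (0.28), Rela (0.16) and Rel did not pass the test. Rel was called without CD11B+ PBS sample 5 at P5 (adjusted p = 0.00499, limma), but was above background on no O4+ PBS array.

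The calls of Relb and Nfkbie depended on the alternative used. Blocking by slide, Relb differed by 0.73 (adjusted p = 0.0505) and Nfkbie by 0.44 (adjusted p = 0.118), with the deposited matrix by 0.45 (adjusted p = 0.138) and 0.42 (adjusted p = 0.117) in limma, and the mean over the Relb probes gave 0.04 (adjusted p = 0.894). When slides were blocked, Tnfaip3 (1.16), Nfkbia (0.96), Nfkbiz (1.14), Bcl3 (1.51) and Nfkb2 (1.10) were called. Of the other lists, 20 of 30 targets (Lcn2 by 2.14, Cxcl10 by 2.06), 5 of 10 receptors (Tlr2 by 1.52), 3 of 11 kinases (Map3k8 by 1.25), 3 of 18 adaptors (Birc3 by 0.98) and 2 of 18 brakes (Zc3h12a by 1.55) had a higher response in O4+ cells. A lower one was found for 3, 2, 1, 3 and 7 genes of these lists, among them Il1rap by -1.56 and Traf1 by -1.54. Of 15 microglia markers 13 had a higher response in O4+ cells, and the part of microglia in the result was not tested. The cell types were isolated in a fixed order, and cell type and order cannot be told apart.

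In O4+ cells of PBS pups 4 of the 5 inhibitors fell from P5 to P10, and Nfkb1 fell as well. Whether these changes differed from those in CD11B+ cells was not tested. The PBS groups of these comparisons are the ones against which IL1B was set above, so that the results are not independent. Of the 10 genes 5 fell, against 9.14% of all probes that fell and 8.09% that rose. The ranges were apart for 5 genes with P10 below, against 11.4% of all probes, and against 13% with P10 above. The median change was -0.50 for the 10 genes, with Rel at its fitted value, -1.88 for the inhibitors and 0.02 for all probes. That of the subunits is not given, since it would be the value of Rel, which was above background on no array of either group.

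Tnfaip3 fell by 2.64 from P5 to P10 in O4+ cells (SE 0.15, 6.90-fold, 6 of 6 samples lower, limma adjusted p = 1.29e-07). Nfkbiz fell by 2.25 (SE 0.18, 4.52-fold, 6 of 6 samples lower, limma adjusted p = 1.83e-06), Nfkbia fell by 1.88 (SE 0.13, 3.93-fold, 6 of 6 samples lower, limma adjusted p = 6.09e-07) and Bcl3 fell by 1.80 (SE 0.18, 3.36-fold, 6 of 6 samples lower, limma adjusted p = 1.07e-05). For these 4 genes the ranges were apart. Nfkb1 fell by 0.65 (SE 0.12, 1.64-fold, 6 of 6 samples below the P5 median, limma adjusted p = 0.00116) with overlapping ranges, and with normexp its change was -0.52, below the fold threshold. A second Nfkb1 probe did not pass the test (-1.01, 6 of 6 samples below the P5 median, limma adjusted p = 0.0779). Rela was lower by a small amount without overlap (-0.35, SE 0.06, 1.30-fold, limma adjusted p = 0.000441, 6 of 6 samples). Nfkbie (-0.24), Relb (-0.08) and Nfkb2 (-0.03) did not pass the test, nor did Rel. Of the other lists 9 of 10 receptors fell (median -0.94; Tlr2 -2.36, Tnfrsf1b -1.53, Tlr4 -1.03, Il1r1 -0.98), as did 20 of 30 targets (median -1.55; Cxcl1 -4.36, Cxcl2 -4.26, Il1b -4.08, Tnf -3.36).

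Among the kinases Map3k8 fell by 2.33 with 2 others and Ikbkg rose by 0.73, and among the adaptors Birc2 rose by 2.50, Birc3 fell by 1.54 and Traf5 fell by 0.71. Of the brakes 4 rose (Otud7b by 2.06, Irak3 by 2.02) and 2 fell (Nfkbid -2.59, Zc3h12a -1.65). Over the same step 12 of 15 microglia markers fell and 1 rose (median -1.31), with summed levels of 18.49, 18.68 and 18.80 at P5 and 18.16, 18.38 and 18.55 at P10, and Csf1r fell by 1.08. Of 12 oligodendrocyte markers 5 rose (Mog by 4.85, Mag by 2.99) and 2 fell (Pdgfra -1.46), and 5 of 8 endothelial markers fell. The summed level of 6 neuron markers did not overlap, at 15.38, 15.61 and 15.89 and then 16.57, 16.87 and 16.97 (Snap25 rose by 1.29; list median -0.28), and 2 of 5 erythroid markers fell (Hba-a1 -1.19). The part of these cells and of microglia in the samples was not tested. The ages shared no slide, and age and slide cannot be told apart; with slide as a random block the changes were -2.67 for Tnfaip3, -2.20 for Nfkbiz, -1.88 for Nfkbia, -1.80 for Bcl3 and -0.55 for Nfkb1.

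In CD11B+ cells of PBS pups only Bcl3 fell between the ages, 1 of 10 genes, against 3.47% of all probes that fell and 4.48% that rose. It fell by 0.90 (SE 0.11, 1.98-fold, 6 of 6 samples lower, limma adjusted p = 0.00021) and its ranges were apart. The ranges were apart for 5 genes with P10 below, against 5.57% of all probes, and against 7.69% with P10 above. Besides Bcl3 these were Nfkb2 (-0.41, 6 of 6 samples lower, limma adjusted p = 0.00516), Relb (-0.38, 6 of 6 samples lower, limma adjusted p = 0.000634), Nfkbie (-0.32, 6 of 6 samples lower, limma adjusted p = 0.00585) and Nfkbiz (-0.39, 6 of 6 samples lower, limma adjusted p = 0.00702), each below the fold threshold. Nfkbia (0.10), Tnfaip3 (0.00), Rela (0.01), Nfkb1 (0.07) and Rel (-0.77) did not pass the test. Of 30 targets 12 fell (median -0.57; Cxcl1 -2.21, Cxcl2 -2.03, Tnfaip2 -1.90, Ptgs2 -1.76), and so did 3 brakes (Il1rn -1.86, Il1r2 -1.32, Irak3 -0.48), 2 kinases (Ikbke -0.96, Map3k8 -0.60) and 2 receptors (Cd40 -0.80, Tlr2 -0.61). Of the microglia markers Tmem119 rose by 1.46 and Itgam rose by 0.85, 8 of 12 oligodendrocyte markers rose (Gpr17 by 1.28) and 5 of 8 endothelial markers fell. Of 6 neuron markers 1 rose and 3 fell (median -0.43). Their summed level did not overlap, at 13.12, 13.21 and 13.33 and then 13.48, 13.79 and 13.99. Of 6 astrocyte markers 1 fell, and so did 1 of 5 lymphocyte markers. The part of these cells was not tested.

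All 10 genes were lower in O4+ than in CD11B+ cells of PBS pups, at both ages and without overlap. At P5 this was 10 of 10 genes, against 21.8% of all probes that were lower in O4+ cells and 19.8% that were higher, and the ranges were apart for 21.8% and 20.6% of all probes. The median difference was -2.70, against -0.05 for all probes. Rela differed least, by -1.11 (SE 0.06, 2.15-fold, 6 of 6 samples, limma adjusted p = 8.76e-09). Relb had the smallest p (-2.49, SE 0.06, 5.64-fold, 6 of 6 samples, limma adjusted p = 1.69e-11), while 1 of its 3 probes overlapped (-0.68, adjusted p = 0.156, 5 of 6 samples). Nfkbiz (-3.42), Bcl3 (-3.40, 10.9-fold) and Nfkb2 (-3.20, 9.33-fold) differed more than Tnfaip3 (-2.91, 6.99-fold), Nfkb1 (-2.23, 4.86-fold), Nfkbie (-2.23, 4.87-fold) and Nfkbia (-2.20, 4.51-fold), with each O4+ sample below each CD11B+ sample. Rel was at least 11.9-fold lower (limma adjusted p = 2.32e-05, 6 of 6 samples). Within slide 4, with 1 CD11B+ and 2 O4+ arrays, 10 of 10 genes were lower in O4+ cells, with differences of -3.69 to -1.12 for the 9 besides Rel.

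At P10 the same was found for 10 of 10 genes, against 20.2% of all probes that were lower and 22.2% that were higher, with ranges apart for 21.7% and 21.8%. The cell types shared no slide at P10, and cell type and slide cannot be told apart there. The median difference was -3.19, with Rel at its fitted value, against 0.00 for all probes. Tnfaip3 had the largest (-5.54, SE 0.13, 49.0-fold, 6 of 6 samples, limma adjusted p = 8.23e-12), followed by Nfkbiz (-5.27, 37.7-fold), Bcl3 (-4.30, 18.5-fold) and Nfkbia (-4.18, 18.8-fold). Rel was at least 7.62-fold lower. Nfkb1 (-2.96, 8.27-fold), Nfkb2 (-2.82, 7.69-fold), Relb (-2.19, 4.49-fold), Nfkbie (-2.15, 4.49-fold) and Rela (-1.47, 2.75-fold) differed less, and the same Relb probe as at P5 had -0.48 (limma adjusted p = 0.00921, 6 of 6 samples). Of the other lists 25 of 30 targets were lower in O4+ cells at P5 and 24 at P10, as were 9 of 11 kinases at each age, 11 and 10 of 18 adaptors, 7 and 8 of 10 receptors and 9 and 7 of 18 brakes. Differences at P5 included those of Il1r2 (-5.13), Mmp9 (-5.02), Tlr4 (-3.81), Map3k8 (-3.66) and Myd88 (-3.09). Microglia markers were lower too, Csf1r by -1.69 at P5 and by -3.07 at P10, and their part in the levels of O4+ samples was not tested.

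Over the 48 arrays the genes were compared with all others by correlation, as a description that includes the difference between cell types. Nfkb1 was most like Mknk2, Hic2 and Fmnl1 (r = 0.994 each), Nfkb2 like Ms4a6c (0.991), Paox (0.99) and Mcl1 (0.989), and Rel like Ccr1 (0.953), Gm5935 (0.949) and Fdxacb1 (0.943). Rela was most like Ehbp1l1 (0.994), Vamp8 (0.993) and Jak3 (0.993), and Relb like AB124611 (0.992), Clec4a1 (0.992) and Clec4e (0.991). Among the inhibitors Nfkbia was most like Gem (0.993) and Ppp1r15a (0.993), Nfkbie like Stk17b (0.987), Trib1 (0.986) and Ptk2b (0.986), and Nfkbiz like Mylip (0.995), Lrrc33 (0.994) and Nfkbid (0.994). Bcl3 was most like Ccl12 (0.992), Batf (0.99) and Casp4 (0.988), and Tnfaip3 like Atf3 (0.995), Cd83 (0.994) and Btg2 (0.992). Because both cell types are among the arrays, any gene that is higher in CD11B+ cells can give a high correlation here.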

How the data were processed

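Per the file headers, spot intensities were extracted with Agilent Feature Extraction 10.7.3.1, which subtracted background and removed spatial trends; they were not normalized between arrays. The deposited matrix holds the ratio of each signal to the median of its array, on a linear scale, and was used only as an alternative. Here, of 59305 spots per array besides controls, 278 non-uniform spots over all arrays were left out and 0 were saturated. Log2 intensities were quantile normalized over the 48 arrays and spots of a probe were averaged. Each pair of groups, and each set of 4 groups for differences between responses, was fitted in limma 3.58.1 (R 4.3.3 with data.table, version 1.17.8) with Benjamini-Hochberg adjustment over all 55681 probes. Figures used Python 3.11.15 with matplotlib 3.10.9, numpy 2.4.6 and pandas 2.3.3.

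Besides the 10 genes, 5 pathway lists with 87 genes and 8 marker lists were followed. The text names all 10 genes in every comparison, of each other pathway list up to 4 genes past the thresholds with the largest change, of each marker list the gene with the highest signal, and for each of the 10 genes the 3 most correlated; other marker genes were chosen after their values were seen. Some single genes that fall under these rules are not reported here. Members and lists were chosen with earlier results of these data known. Promoter sequences are from RefSeq. The highest correlation of 2 arrays was 0.9976 over 24551 probes above background on all arrays.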

Additional observations from a re-analysis of the deposited data

Results flagged for a closer look

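Of 80 groups of 6 samples tested (10 genes in 8 groups; Relb with 5 samples in 1), 7 held a sample whose gap to the nearest other was a large part of the range of the group. Chance gives about 1 in 20 such groups, a rate that takes no account of slide. In O4+ PBS at P10 these were replicate 6 for Nfkb1 (7.83, nearest 7.28, gap 0.86 of the range) and replicate 3 for Rel (2.21, nearest 1.52, gap 0.946), where Rel was below background. Rel was low in replicate 5 of CD11B+ PBS at P5 (3.16, nearest 6.03, gap 0.819) and in replicate 6 of CD11B+ IL1B at P10 (2.07, nearest 3.79, gap 0.846). Rela was low in replicate 3 of O4+ PBS at P5 (13.51, nearest 13.74, gap 0.708), Relb high in replicate 6 of O4+ IL1B at P10 (9.38, nearest 9.09, gap 0.752) and Bcl3 low in replicate 3 of CD11B+ IL1B at P5 (13.75, nearest 13.99, gap 0.632). The flagged replicates 6 of O4+ PBS, O4+ IL1B and CD11B+ IL1B at P10 were the only arrays of their groups on slide 9. Replicate 5 of CD11B+ PBS at P5 was the only array of its group on slide 2. The part of slide was not tested.

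Responses to IL1B that differed between groups by the interaction term in limma are given here once more. Between ages in O4+ cells these were Nfkb2 (-1.95), Rel (-1.52 as fitted), Rela (-0.30), Relb (-1.66), Nfkbie (-0.59) and Bcl3 (-2.38), with the response at P10 the lower one; the value of Rel is not a measured size, since it was above background in 1 of the 4 groups only, and Rel was not called with all groups in 1 fit. Nfkbie was not called with slide as a block. In CD11B+ cells they were Rela (-0.19), Relb (-0.52) and Bcl3 (-0.94), lower at P10, and Nfkbia (0.53), Nfkbiz (0.71) and Tnfaip3 (0.46), higher at P10; none of the 3 higher ones was called with slide as a block. Between cell types at P5 they were Nfkb2 (0.93), Relb (0.63), Nfkbia (1.01), Nfkbie (0.50), Nfkbiz (1.03), Bcl3 (1.51) and Tnfaip3 (1.30), higher in O4+ cells, of which Relb and Nfkbie were not called with slide as a block. What made the responses differ was not tested.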

How the results depend on the processing

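Of 711 values of genes past the thresholds, each under 1 alternative without arrays left out, 687 stayed past them and 24 did not; of 621 values of genes not past them, 571 were the same, 20 passed, 29 moved and 1 turned direction past the threshold. That 1 was the difference in the IL1B response of Nfkb1 between ages in CD11B+ cells, at -0.63 with the mean over its probes. Without a fold threshold 8 of 10 genes passed in CD11B+ cells at P5 (6 higher, 2 lower), 5 at P10 and 5 between ages in PBS CD11B+ cells, since the threshold itself was removed. Of all probes, 21.3%, 6.03% and 21.1% passed in these comparisons. In CD11B+ cells at P10, 2 genes (Rel and Bcl3) passed with all 8 groups in 1 fit, and 0 with slide as a block (4 at unadjusted p under 0.05, limma). The shares of all probes were 3.33% and 0.00359%. With slide as a block 3 genes differed in response between ages in CD11B+ cells, against 4.43% of all probes. The cause was not tested.

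The replicate numbers were not treated as pairs, since in no comparison was the correlation of all 6 same-numbered pairs over 0.1 (0.0874 to 0.314 in O4+ cells at P5). Between cell types, which came from the same cortices, 5 of 6 pairs were over 0.1 at each age. Samples there correlated best with their own number in 4 of 6 pairs at P5 and in 5 of 6 at P10, and in fewer elsewhere. With replicate as a block all 10 genes were at an unadjusted p under 0.05 (limma) between cell types at both ages. With the replicate block 0 of 10 genes passed in CD11B+ cells at P10 (7 at unadjusted p under 0.05, limma), and 655 of all probes passed instead of 1119. With this block the difference in the IL1B response of Rela between ages in CD11B+ cells was not called (-0.19, limma adjusted p = 0.0651).

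With 1 of 48 arrays left out at a time, counts ran from 7 to 8 (O4+ at P5), 2 to 4 (O4+ at P10), 3 to 3 (CD11B+ at P5), 1 to 1 (CD11B+ at P10), 5 to 5 (O4+ between ages), 1 to 1 (CD11B+ between ages), 10 to 10 (cell types at P5 and at P10), 6 to 6 and 5 to 7 (responses between ages in O4+ and in CD11B+ cells) and 7 to 8 (responses between cell types).

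Counts of all probes past the thresholds moved more. In O4+ cells at P5, 2794 passed (69.7% of them higher), 1367 with normexp at an offset of 50 (81.3%) and 10362 without a fold threshold (36.7%, so that more of these were lower than higher); the matrix gave 58.5% higher. In O4+ cells at P10 the counts were 2301 (63.5% higher), 3601 with scaling to the 75th percentile (42.7%), 1022 with normexp and 6243 without a fold threshold (49.7%); the matrix gave 51.8%. In CD11B+ cells at P5 they were 5007 (44.2% higher), 2595 with normexp (55.0%), 11846 without a fold threshold (37.3%) and 2146 with slide blocks (59.1%); 75th-percentile scaling gave 54.5%. In CD11B+ cells at P10 they were 1119 (50.9% higher), 3359 without a fold threshold (51.7%), 1853 with all groups in 1 fit, 2 with slide blocks and 680 with scan day blocks, an alternative chosen after seeing the data; the matrix gave 64.8%. Between ages 9595 passed in O4+ cells, 4790 with normexp and 19027 without a fold threshold, and 4431 in CD11B+ cells, 2102 and 11725 with the same alternatives and 2034 with scan day blocks. Between cell types 23178 passed at P5 (47.6% higher), 15076 with normexp (34.6% higher with the matrix), and 23612 at P10. Responses between ages gave 7492 in O4+ cells (59.3% higher; 36.9% with 75th-percentile scaling), 4086 with slide blocks, and 9231 in CD11B+ cells (62.9%; 82.6% with the matrix), 2465 with slide blocks. Responses between cell types gave 5965, 3395 with the matrix and 2253 with slide blocks. Means over probes count 34797 genes and not probes. In some comparisons the shares past the thresholds were close to those of probes. They were 4.31% against 4.13% in O4+ cells at P10, and 17.2% in both and 7.87% against 7.96% between ages in O4+ and CD11B+ cells. Between cell types they were 41.6% in both at P5 and 43.4% against 42.4% at P10. Shares of genes were higher in O4+ cells at P5 (5.5% against 5.02%). The same held in CD11B+ cells at P5 (9.89% against 8.99%) and at P10 (2.23% against 2.01%). Gaps were wider for responses between ages, at 15.7% against 13.5% in O4+ cells and 19.3% against 16.6% in CD11B+ cells. For responses between cell types the share of genes was higher as well.

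Other scalings shifted the median change of all probes. With the matrix it was -0.17 in O4+ cells at P5 and at P10, 0.22 between ages in O4+ cells, -0.45 and -0.16 between cell types at P5 and P10, and 0.14 for responses between ages in CD11B+ cells. With 75th-percentile scaling it was -0.19 in O4+ cells at P10, 0.11 in CD11B+ cells at P5, 0.22 between ages in O4+ cells, -0.35 between cell types at P5, -0.11 for responses between ages in O4+ cells and -0.14 for responses between cell types. Signal over background limits Rel most, which was above background on no array of 3 O4+ groups.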
